A study of Homo sapiens with 16 samples.

Results

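The genes described here are 38 human genes of DNA replication and cell division, the cell cycle genes, followed through neural crest induction in cells with and without an edit of FOXB1. They were chosen by symbol, from a list of known cell cycle genes, out of the 23284 genes in the authors' deposited table, and all 38 were found there. By the phase of their main role, 21 were placed with G1/S (licensing and replication of DNA, and entry into S phase) and 17 with G2/M (entry into mitosis, the spindle and chromosome segregation). The study induced WA01 cells, a human embryonic stem cell line, toward neural crest with 3 µM CHIR99021, which inhibits GSK3 and so activates WNT signalling. The labels list 16 samples of poly-adenylated RNA, 2 replicates in each of 8 groups, from 4 lines at day 3 (pre-neural crest) and day 5 (neural crest). FOXB1 encodes a forkhead transcription factor, and the series asks how it bears on the timing of crest differentiation.

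Every group received CHIR99021 and, at the start of differentiation, the ROCK inhibitor Y-27632 at 10 µM. Cells were plated at 20000 per cm2. The groups differ in FOXB1 genotype, line and day. Each edited genotype is a single line, so effects of genotype and of line cannot be told apart. The lines isoWT1 and isoWT2 are isogenic wild type. The lines sgRNA-Het and sgRNA-KO, here Het and KO, were edited with CRISPR/Cas9 and a single guide at the translational start of FOXB1. Whether a line is 1 clone is not stated in the labels, and the edit is present from the stem cell stage on. The deposited table has 6 groups, wild type, Het and KO at day 3 and day 5, with a single wild-type group per day. Which of the 4 wild-type libraries per day entered it is not stated, and the group named HOMO was read as KO. Labels name 2 replicates per group without saying whether they were separate cultures, so the tests measure the spread between these samples, which may be technical.

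Before DNA is copied, origins are licensed by loading the MCM2-7 ring, a helicase, with the help of CDC6 and CDT1. D-type cyclins with CDK4 and cyclin E with CDK2 phosphorylate the RB proteins, which frees E2F factors to switch on the genes of S phase, several of which are among the 21. Promoters with a CHR element, bound by LIN54, are held silent by the DREAM complex in quiescence and early G1 and activated by the MMB complex later in the cycle, often with NF-Y at CCAAT boxes, and genes such as CDK1, cyclin B and the spindle kinases peak in G2 and mitosis. Neural crest progenitors divide while they acquire their identity, and D-type cyclins are known WNT and growth factor targets in many tissues.

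Promoter sequences of both phases are shown because their motif matches differed between the G1/S and the G2/M genes. Windows of 300 bases, from 250 before to 50 after a transcript start, came from RefSeq (GRCh38.p14) and were found for 29 of the 38 genes, 15 of G1/S and 14 of G2/M. Each stretch below is 5′ to 3′ on the strand of its gene, lies before the start, stops where an annotated exon begins, and has motif matches on either strand in capitals. E2F motifs were searched as TTCCCGC or TTCGCGC, or as either TTGCCGC or TTGGCGC, the CHR as TTTGAA and the NF-Y box as CCAAT, all of them on both strands, so that a CHR is also read as TTCAAA and an NF-Y box as ATTGG. Overlapping E2F matches on opposite strands appear as 1 run of capitals. E2F1, MCM6 and MCM3 are G1/S genes. TOP2A, CDK1 and CDC20 are G2/M genes.
E2F1 (chr20:33686405-33686585, minus strand): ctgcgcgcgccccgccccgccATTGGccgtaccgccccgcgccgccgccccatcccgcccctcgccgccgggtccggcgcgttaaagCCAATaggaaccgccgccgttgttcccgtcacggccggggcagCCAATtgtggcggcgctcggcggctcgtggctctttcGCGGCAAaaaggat
MCM6 (chr2:135876444-135876643, minus strand): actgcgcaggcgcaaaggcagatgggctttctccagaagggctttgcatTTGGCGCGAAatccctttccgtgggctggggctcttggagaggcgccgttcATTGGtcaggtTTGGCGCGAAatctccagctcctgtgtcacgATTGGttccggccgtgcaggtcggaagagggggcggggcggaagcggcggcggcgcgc
MCM3 (chr6:52284882-52284942, minus strand): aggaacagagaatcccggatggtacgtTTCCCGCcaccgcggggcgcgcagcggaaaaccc
TOP2A (chr17:40417951-40418096, minus strand): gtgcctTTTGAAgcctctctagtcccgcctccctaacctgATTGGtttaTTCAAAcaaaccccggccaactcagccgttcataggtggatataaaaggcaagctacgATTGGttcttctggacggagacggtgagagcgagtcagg
CDK1 (chr10:60778131-60778330, plus strand): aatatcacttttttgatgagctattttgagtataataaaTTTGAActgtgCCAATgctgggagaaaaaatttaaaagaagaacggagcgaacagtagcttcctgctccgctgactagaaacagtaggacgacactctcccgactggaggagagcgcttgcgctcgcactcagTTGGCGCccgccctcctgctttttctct
CDC20 (chr1:43358781-43358954, plus strand): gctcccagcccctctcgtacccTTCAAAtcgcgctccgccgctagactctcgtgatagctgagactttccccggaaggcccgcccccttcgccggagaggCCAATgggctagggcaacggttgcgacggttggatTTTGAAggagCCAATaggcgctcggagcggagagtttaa

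An E2F motif was present in a window of 12 of 15 G1/S genes (80.0%) and 2 of 14 G2/M genes (14.3%), beside 15.3% of all 27305 genes with a window. A CHR was present in 1 of 15 G1/S genes (6.67%) and 9 of 14 G2/M genes (64.3%), beside 18.2% of all genes. NF-Y boxes were common in both, in 10 of 15 (66.7%) and 12 of 14 (85.7%), beside 39.7% of all genes. A CHR together with an NF-Y box was found in 8 of 14 G2/M genes (57.1%), 1 of 15 G1/S genes and 8.37% of all genes. CDK1 had motifs of both phases. Its printed window has a CHR and an NF-Y box upstream and an E2F motif nearer the start, and a window at another of its starts has them in the reverse order. CCNB1 was the other G2/M gene with an E2F motif, and RRM1 the G1/S gene with a CHR. These matches describe letters in short windows, not binding. Windows of 9 genes, among them MCM4, MCM5, CCND1, CCND2 and UBE2C, were not used here.

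**Figure D1:**
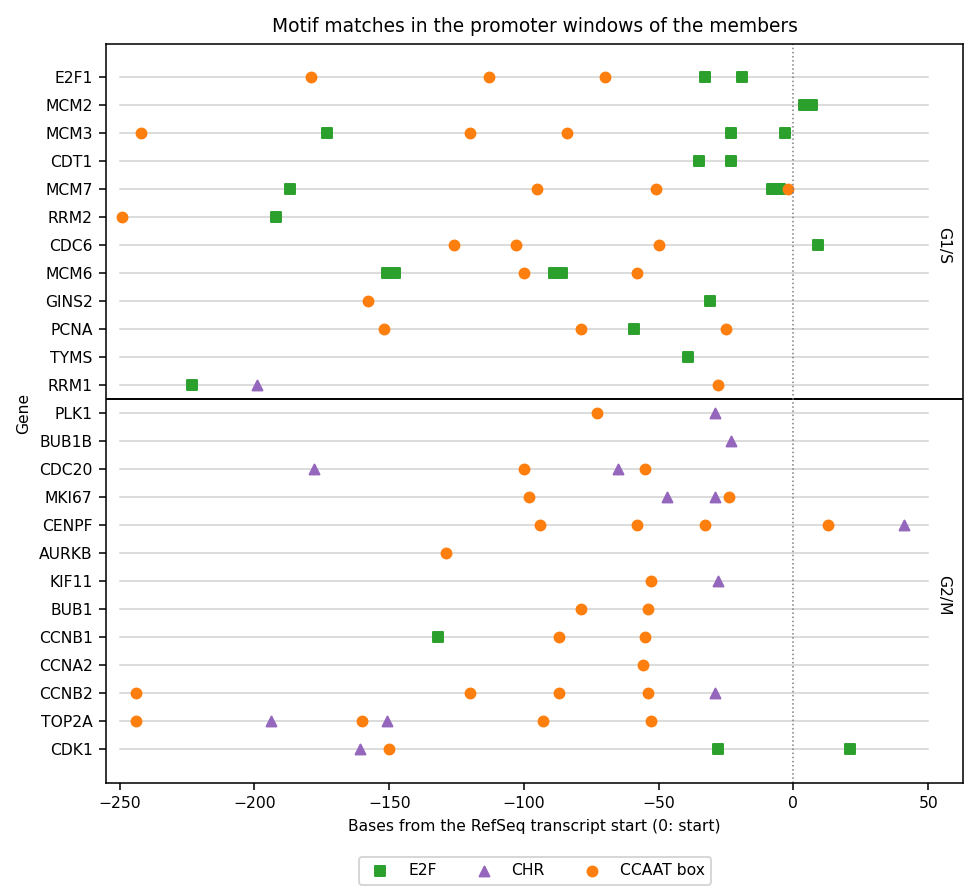
Motif matches along the promoter window of each of the 25 cell cycle genes with a match in its outermost window; the x axis is the distance in bases from the RefSeq transcript start, green squares are E2F motifs, purple triangles CHR elements and orange circles CCAAT boxes. E2F matches fall in the G1/S rows except for CCNB1 and CDK1, and CHR matches in the G2/M rows except for RRM1.

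The table gives 1 FPKM (fragments scaled by transcript length and sequencing depth) per gene and group, so depth per sample is unknown and replicate spread is known only through the deposited test scores. Errors below are the standard errors (SE) those scores imply. All 38 genes reached at least 1 FPKM in each of the 6 groups and were tested in all 9 comparisons used, so a filter on low values removed none. Over all groups, 13099 to 13562 genes reached 1 FPKM per group. FOXB1 stood at 18.3, 7.73 and 15.5 FPKM in wild type, Het and KO at day 3, and at 5.51, 4.47 and 1.86 at day 5. An edit of the translational start need not remove the transcript, so these RNA levels do not check the labels. Of the marker lists for cell identity, summed neural crest markers (10 genes, none at 0 FPKM) went from 18.4 FPKM in wild type at day 3 to 64.2 at day 5, stood at 65.5 and 113 in Het, and at 85.8 and 265 in KO. In wild type at day 5, labelled neural crest, 3 of the 10 were below 1 FPKM and SNAI2 was the highest (23.2 FPKM). PAX7 was lower at day 5 in each line, SOX10 in wild type and PAX3 in Het. At a deposited q-value below 0.05, 6 of 7 tested markers rose and 0 fell in wild type, beside 11.2% and 10.4% of all genes. In Het 6 of 10 rose and 1 fell, beside 4.74% and 2.83%. In KO 8 of 10 rose and 1 fell, beside 7.29% and 4.53%.

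The cell cycle genes spanned a wide range of levels, with UBE2C and the DNA clamp PCNA at the top and cyclins E2 and D3 at the bottom. PCNA, which tethers DNA polymerase to its template, stood at 226, 202 and 201 FPKM in wild type, Het and KO at day 3, and 187, 179 and 181 at day 5, and passed no test. UBE2C, which hands ubiquitin to the anaphase-promoting complex, had the highest mean over the 6 groups, with 155, 151 and 159.8 FPKM in wild type, Het and KO at day 3, and 299, 290.5 and 237 at day 5. CCNE2 ranged from 3.82 to 7.22 FPKM and CCND3 from 4.25 to 7.28. Of the 21 G1/S genes, 10 had their highest value in wild type at day 3, and 8 had their lowest value in wild type at day 5. Of the 17 G2/M genes, 14 had their highest value in wild type at day 5, and 6 their lowest in wild type at day 3. How often genes at large had their highest or lowest value in these groups was not counted, so these counts only describe the listed genes. The heat map shows the levels.

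**Figure D2:**
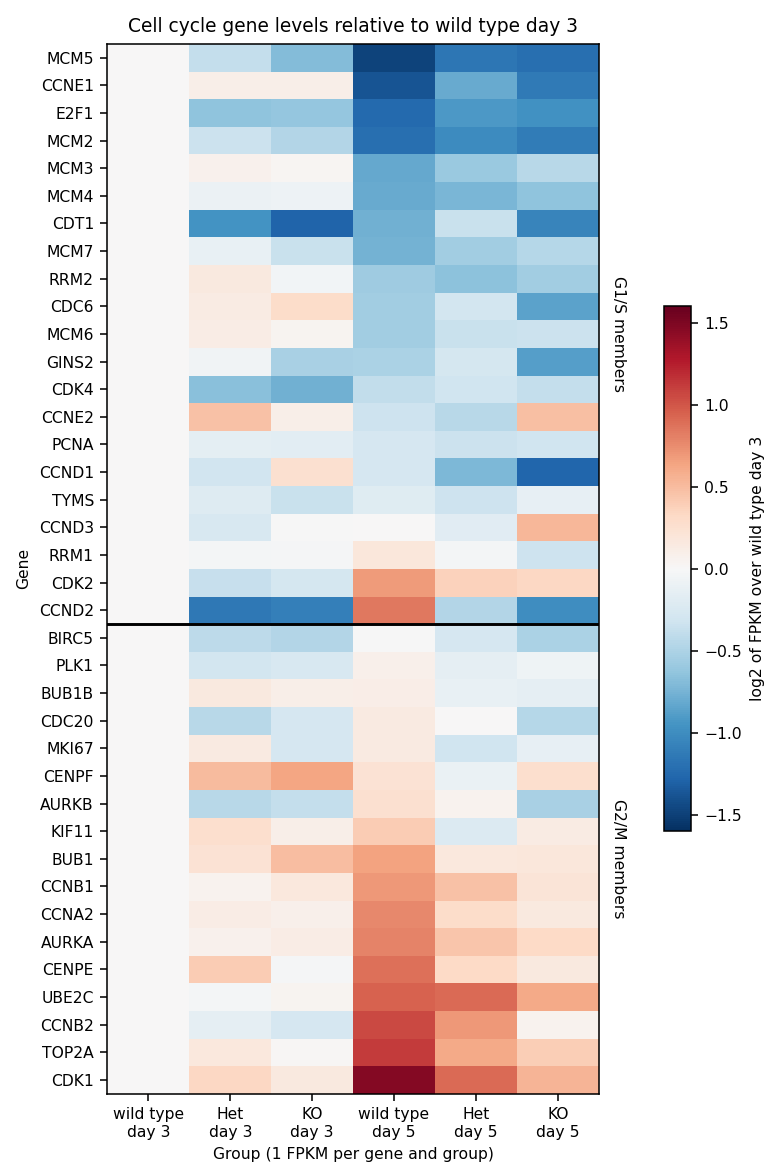
Levels of the 38 cell cycle genes in the 6 groups as log2 of FPKM over wild type day 3 (red higher, blue lower), 1 value per gene and group, with G1/S genes above the black line and G2/M genes below it. The deepest colours are in the wild type day 5 column, from -1.48 for MCM5 to 1.46 for CDK1.

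From day 3 to day 5 in wild type, 5 of the 6 MCM genes, the loader CDT1, cyclin E1 and E2F1 fell, while CDK1, its cyclins A2, B1 and B2, TOP2A and 4 genes of the spindle and mitotic exit rose. By the authors' deposited table, 8 of 21 G1/S genes fell and 2 rose, while 9 of 17 G2/M genes rose and 0 fell, at a q-value below 0.05, the threshold for every call here. Of all genes tested in that comparison 11.2% were called higher and 10.4% lower. The median log2 change was -0.55 for G1/S genes (17 of 21 below 0) and 0.64 for G2/M genes (16 of 17 above 0), beside 0.01 for all 14680 genes tested. Levels average over cells in all phases, so more cells in a phase and more RNA per cell cannot be told apart.

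Of the 6 subunits of the MCM ring, 5 fell in wild type. MCM5 (chromosome 22, 35796116 to 35820495 in hg19, the build of all gene positions below) stood at 70.5, 54.3 and 43.6 FPKM in wild type, Het and KO at day 3, and 25.3, 31.6 and 30.5 at day 5. Its wild-type fall was 2.79-fold (log2 change -1.48, SE 0.45), and the 3 day 3 groups all lay above the 3 day 5 groups. MCM2 (chromosome 3, 127317253 to 127341278) stood at 101, 79.7 and 73.4 FPKM in wild type, Het and KO at day 3, and 43.9, 50.2 and 46.6 at day 5, with a wild-type change of -1.21, SE 0.43. MCM3, MCM4 and MCM7 fell less, by log2 changes of -0.82, SE 0.41, -0.81, SE 0.41 and -0.76, SE 0.46. In each of these 3 genes, and in MCM2 and MCM6, too, all day 3 groups were above all day 5 groups. The share of all genes separated in this way was not counted. MCM3 had 131, 138 and 134 FPKM in wild type, Het and KO at day 3, and 74.1, 86.4 and 96.0 at day 5. MCM4 had 121, 114 and 115 FPKM in wild type, Het and KO at day 3, and 69.2, 72.9 and 77.4 at day 5. MCM7, the subunit with the highest level in every group, had 174, 160.0 and 136 FPKM in wild type, Het and KO at day 3, and 103, 118 and 126 at day 5. MCM6, at 53.5, 58.3 and 54.9 FPKM in wild type, Het and KO at day 3, and 36.5, 41.9 and 42.3 at day 5, was lower at day 5 in each line but was not called (wild type -0.55, SE 0.41, q 0.0973 in the authors' deposited table). Summed over the ring, the subunits came to 651, 604 and 556 FPKM in wild type, Het and KO at day 3, and to 352, 401 and 419 at day 5. The protein ring holds 1 of each subunit, while the ratio of the highest to the lowest FPKM among the 6 was 3.24 in wild type at day 3 and 4.07 at day 5.

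The loaders of the ring differed from each other. CDT1 (chromosome 16, 88870186 to 88875666), the licensing factor destroyed in S phase, stood at 19.7, 10.1 and 8.05 FPKM in wild type, Het and KO at day 3, and 11.5, 15.3 and 9.44 at day 5. It fell in wild type (-0.77, SE 0.48), a change that became -0.04 in the GC comparison given below, while Het and KO already stood low at day 3. CDC6, the ATPase that works with it, stood at 39.2, 43.1 and 48.1 FPKM in wild type, Het and KO at day 3, and 26.6, 32.1 and 21.7 at day 5. Its fall was called in KO (-1.15, SE 0.43), where the day 3 level was the highest of all and the day 5 level the lowest. GINS2, a subunit of the active helicase, ranged from 41.8 to 76.9 FPKM and passed no test.

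Regulators of S phase entry moved in both directions in wild type. E2F1 (chromosome 20, 32263292 to 32274210), the activator whose own promoter carries E2F motifs, stood at 27.1, 17.4 and 17.6 FPKM in wild type, Het and KO at day 3, and 11.5, 14.4 and 13.8 at day 5, and fell 2.36-fold in wild type (-1.24, SE 0.49). CCNE1 (chromosome 19, 30302901 to 30315215), the cyclin that activates CDK2 at the G1/S border, stood at 17.9, 19.2 and 19.1 FPKM in wild type, Het and KO at day 3, and 6.87, 10.2 and 8.14 at day 5. It fell in wild type (-1.38, SE 0.54) and in KO (-1.23, SE 0.52). All its day 3 groups lay above all its day 5 groups, a separation that was not counted over all genes. Its kinase partner CDK2, on chromosome 12, went the other way, with 30.1, 23.4 and 24.8 FPKM in wild type, Het and KO at day 3, and 48.2, 38.7 and 37.8 at day 5, and rose in wild type (0.68, SE 0.43). CCND2 also rose there and is described with the D-type cyclins. Genes that supply nucleotides were not called in wild type in the authors' deposited table, though RRM2 was within the GC bins described below. Of these, RRM2, the regulated subunit of ribonucleotide reductase, ranged from 42.7 to 75.2 FPKM, lower at day 5 in each line. RRM1, the large subunit, ranged from 70.3 to 99.8 FPKM, and TYMS, thymidylate synthase, from 61.9 to 79.4.

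The mitotic kinase CDK1 (chromosome 10, 62538089 to 62554610) had the largest rise among the 38 genes in wild type. Its level was 55.6, 69.8 and 61.8 FPKM in wild type, Het and KO at day 3, and 153, 105 and 81.1 at day 5, a wild-type rise of 2.76-fold (1.46, SE 0.41), and wild type at day 5 was above the other 5 groups. Its cyclins rose as well. CCNB2 (chromosome 15, 59397284 to 59417244), a B-type cyclin, stood at 78.5, 71.2 and 65.0 FPKM in wild type, Het and KO at day 3, and 163, 126 and 81.5 at day 5, with a wild-type change of 1.06, SE 0.41. CCNB1, the main mitotic cyclin, stood at 109, 113 and 122 FPKM in wild type, Het and KO at day 3, and 176, 151 and 126 at day 5, with 0.69, SE 0.41. CCNA2, the cyclin of S phase and G2, stood at 48.9, 52.9 and 51.9 FPKM in wild type, Het and KO at day 3, and 83.5, 59.7 and 54.7 at day 5, with 0.77, SE 0.49 and a q of 0.0473 in the authors' deposited table, close to the threshold. Both B cyclins summed to between 184 and 187 FPKM in the 3 lines at day 3, and to 339, 277 and 207 in wild type, Het and KO at day 5.

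Genes of chromosome structure, the spindle and mitotic exit also rose in wild type. TOP2A (chromosome 17, 38544773 to 38574202), which untangles sister DNA, stood at 75.2, 84.6 and 76.2 FPKM in wild type, Het and KO at day 3, and 164, 115 and 99.1 at day 5, and rose 2.17-fold in wild type (1.12, SE 0.41). UBE2C (chromosome 20, 44441255 to 44445596) rose in wild type (0.94, SE 0.43) and in Het (0.94, SE 0.43). CENPE, a kinetochore motor, stood at 10.2, 13.4 and 10.1 FPKM in wild type, Het and KO at day 3, and 18.8, 12.7 and 11.3 at day 5, and rose in wild type (0.88, SE 0.40). AURKA, the centrosomal kinase, stood at 34.1, 35.8 and 37.1 FPKM in wild type, Het and KO at day 3, and 59.4, 46.4 and 42.7 at day 5, and rose there too (0.80, SE 0.43). BUB1, a kinase of the spindle checkpoint, stood at 40.7, 47.7 and 57.4 FPKM in wild type, Het and KO at day 3, and 63.6, 45.8 and 46.3 at day 5, with a wild-type rise of 0.64, SE 0.41. In TOP2A, UBE2C and AURKA all day 5 groups were above all day 3 groups, while BUB1 at day 5 was below its day 3 level in Het and KO. The share of all genes separated by day was not counted. The other 8 G2/M genes were not called in wild type.

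The wild-type course also moved with the GC content of transcripts. The median change was 0.40 in the 20% of expressed genes with the lowest GC content and -0.53 in the 20% with the highest, and the median GC content was 50.3% for the G1/S genes and 43.2% for the G2/M genes. With each change taken less the median of its GC bin, 15 of the 38 genes were called, 12 of them among the 19 above, with medians of -0.57 for G1/S and 0.48 for G2/M. MCM7, CDT1, E2F1, CCNA2, CCNB1, BUB1 and CENPE lost their calls, and MCM6, CDC6 and RRM2 gained one. MCM2 became -0.82, MCM5 -1.20 and CDK1 1.05. Among those that lost their calls CDT1 became -0.04, E2F1 -0.65, MCM7 -0.48, CENPE 0.37, BUB1 0.39, CCNB1 0.48 and CCNA2 0.52. Summed pluripotency markers (9 genes, none at 0) went from 738 to 452 FPKM over the same days, of which LIN28A was 465 and 291. LIN28B (46.7 to 58.2 FPKM) and DPPA4 (50.5 to 59.5 FPKM) went the other way. Of the 8 markers tested 5 were called lower and 0 higher, beside 10.4% and 11.2% of all genes. The part of GC content and of cell identity in the result was not tested.

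**Figure D3:**
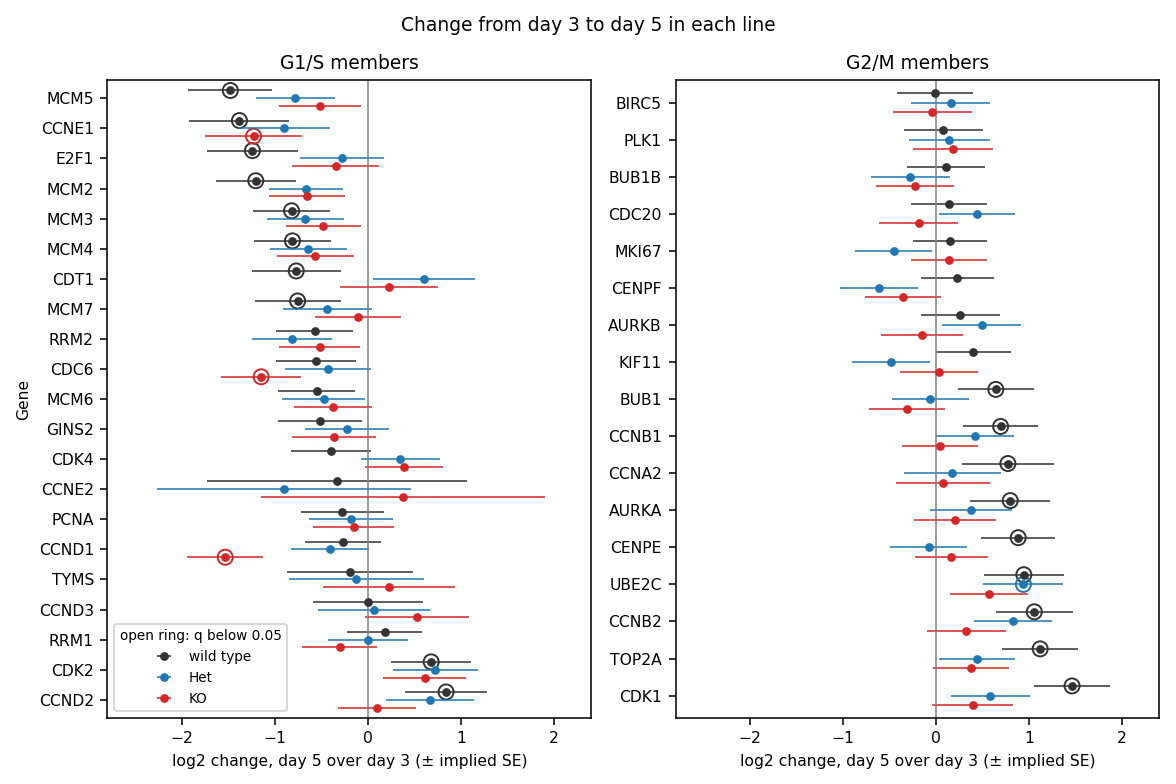
Log2 change from day 3 to day 5 in wild type (black), Het (blue) and KO (red) for each G1/S gene (left) and G2/M gene (right); points are changes in FPKM, bars 1 implied SE either side, and open rings a deposited q below 0.05. Wild-type points lie farthest from 0 for most genes with a ring, while CCND1 and CDC6 carry a ring in KO alone.

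Over the same days the edited lines had fewer calls. In Het, 1 of 38 genes was called in the authors' deposited table, the rise of UBE2C, where 4.74% of all genes tested were called higher and 2.83% lower. In KO, the 3 called genes CDC6, CCNE1 and CCND1 all fell and 0 rose, where 7.29% of all genes were called higher and 4.53% lower. The median change of G1/S genes was -0.41 in Het (16 of 21 below 0) and -0.35 in KO (14 of 21), beside 0.05 and 0.08 for all genes. For G2/M genes it was 0.17 in Het and 0.08 in KO, with 11 of 17 above 0 in each. Under the GC bins UBE2C was not called in Het, and the 3 calls in KO stayed. Counts of calls cannot be compared across the lines, because the deposited test gave a smaller p for the same score in wild type than in Het or KO (the SE its p-values stand for was 0.547, 0.707 and 0.713 of the implied SE in wild type, Het and KO).

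Sizes of change are therefore set side by side. The 8 G1/S genes that fell in wild type had a median change of -1.01 there, -0.65 in Het and -0.50 in KO, and 7 of the 8 were below 0 in each edited line. CDT1 was the exception in both, with 0.60, SE 0.55 in Het and 0.23, SE 0.53 in KO. The 9 G2/M genes that rose in wild type had medians of 0.88, 0.42 and 0.20, and 7 were above 0 in Het and 8 in KO. BUB1 and CENPE were the exceptions in Het and BUB1 in KO. All 17 had a smaller change in each edited line than in wild type. Of the 2 G1/S genes that rose in wild type, CCND2 was smaller in both lines, while CDK2 was at 0.73 in Het beside 0.68 in wild type. The edited lines lacked the GC trend of wild type over time. Medians of the lowest and highest 20% were -0.0038 and 0.13 in Het, and 0.08 and 0.03 in KO. Within GC bins 3 of the 17 genes were not smaller throughout. These were MCM7 in Het (-0.50, beside -0.48 in wild type), CCNE1 in KO (-1.26, beside -1.23) and CDT1 (0.41 in Het and 0.17 in KO, beside -0.04). All 19 were picked for their wild-type change, so this is a description and no test.

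The difference of the day changes was tested directly, as the change in an edited line less that in wild type over the implied SE. For KO, 0 of 38 genes passed at an adjusted p below 0.05 (2-sided normal p, Benjamini-Hochberg over all genes), where 0.318% of 14143 genes passed. Unadjusted, 1 of 38 was below 0.05, beside 4.89% of all genes. For Het, 0 passed, where 0.112% of 14250 genes did, and 0 were below 0.05 unadjusted, beside 1.94% of all genes. With the SE scaled to what the deposited p-values imply, CCND1 passed in KO (difference -1.26, SE 0.58, adjusted p 0.0174), where 5.10% of all genes passed, and 0 passed in Het, where 1.28% did. At that scaling 9 of the 38 genes were below 0.05 unadjusted in KO, beside 15.2% of all genes, and 6 in Het, beside 10.7%. CDK1 differed by -1.07 (SE 0.60, adjusted p 0.0766 with scaled SE) in KO, and CDT1 by 1.37 (SE 0.73, adjusted p 0.123) in Het. Median differences were 0.25 for G1/S genes (16 of 21 above 0) and -0.59 for G2/M genes (16 of 17 below 0) in KO, beside 0.05 for all genes, and 0.13 and -0.42 in Het, beside 0.02. PLK1 was the G2/M gene above 0 in KO, and within GC bins it was at -0.22. There the difference of CDK1 in KO became -0.70 and that of CDT1 in Het 0.40. The medians of this paragraph are without GC bins, and the part of GC content in them was not tested. So single genes other than CCND1 did not pass even where the SE was scaled, while the 2 phases had medians on opposite sides of 0 in each line.

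**Figure D4:**
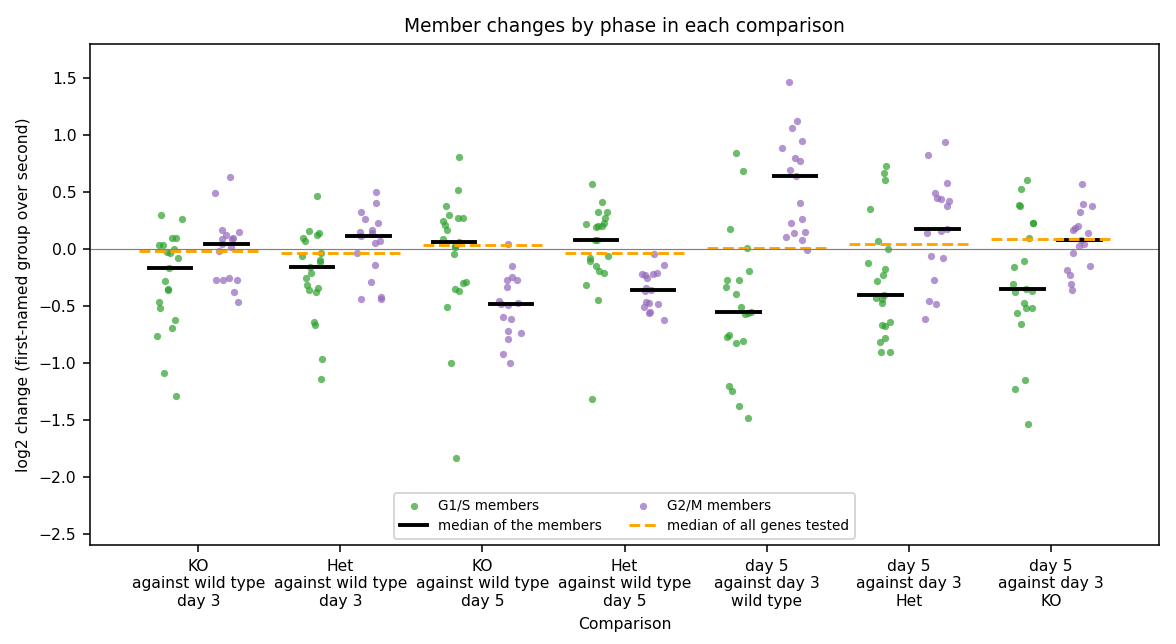
Log2 changes of G1/S genes (green) and G2/M genes (purple) in 7 comparisons, 1 point per gene, as the first-named group over the second; black lines are medians of the genes and dashed orange lines medians of all genes tested. At day 5 the G2/M medians are -0.49 in KO and -0.36 in Het against the same wild-type group, and in wild type over time the 2 phases part to -0.55 and 0.64.

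At day 3, 3 G1/S genes were lower in KO than in wild type and 0 of 17 G2/M genes were called (2 were higher and 0 lower at Cuffdiff's unadjusted p below 0.05, beside 8.75% and 11.4% of all genes). In the authors' deposited table CDT1 (-1.29, SE 0.50), CCND2 (-1.09, SE 0.42) and CDK4 (-0.76, SE 0.42) were called lower and 0 of 38 higher, where 5.17% of all genes were called lower and 4.34% higher. CDT1 stood 2.44-fold lower in KO than in wild type. CDK4, the kinase partner of the D-type cyclins, on chromosome 12, stood at 182, 115 and 107 FPKM in wild type, Het and KO at day 3, and 138, 146 and 140.5 at day 5, so that wild type at day 3 was above the other 5 groups. The medians were -0.17 for G1/S genes, with 15 of 21 below 0, and 0.04 for G2/M genes. The first became -0.06 without the genes on chromosome 12, and the second -0.03 within GC bins. Changes fell with GC content in this comparison, with medians of 0.17 in the lowest 20% and -0.47 in the highest, and CDT1 has the highest GC content of the 38 genes, 64.9%. Within GC bins only CCND2 was called (-1.18). Its call is taken up with chromosome 12 below.

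Het at day 3 had 2 of these calls. CDT1 (-0.96, SE 0.48) and CCND2 (-1.14, SE 0.42) were called lower in the authors' deposited table and 0 of 38 higher, where 4.63% of all genes were called lower and 1.68% higher. CDK4 in Het was at -0.67, SE 0.42 and was not called (q 0.0718 in the authors' deposited table). Medians were -0.16 for G1/S genes and 0.11 for G2/M genes, which became -0.09 and 0.02 within GC bins. Of the 17 G2/M genes 0 were called and 1 was higher unadjusted, beside 3.83% of all genes. The GC trend was of the same size, 0.21 and -0.47, and within GC bins only CCND2 was called. KO and Het were compared with the same wild-type group, so a low or high value in that group enters both. Summed neural progenitor markers were 404, 257 and 221 FPKM in wild type, Het and KO at day 3, summed mesoderm and endoderm markers were 2.05, 4.27 and 30.5, and their part in these values was not tested.

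At day 5, 4 genes were lower in KO than in wild type, 2 of each phase. In the authors' deposited table CCND1 (-1.004, SE 0.41), CCND2 (-1.83, SE 0.44), CDK1 (-0.92, SE 0.43) and CCNB2 (-1.004, SE 0.42) were called lower and 0 of 38 higher, where 5.68% of all genes were called lower and 7.58% higher. CDK1 was 1.89-fold lower and its cyclin CCNB2 2.01-fold lower. The G2/M genes had a median of -0.49, with 16 of 17 below 0, beside 0.03 for all genes, and CENPF, a kinetochore protein gene on the long arm of chromosome 1, was the gene above 0 (0.04). G1/S genes had a median of 0.06, which became -0.01 within GC bins and 0.12 without the genes on chromosome 12. AURKB, the kinase of the chromosomal passenger complex, at 86.1, 63.6 and 66.3 FPKM in wild type, Het and KO at day 3, and 103, 89.4 and 59.9 at day 5, missed the threshold (-0.79, SE 0.43, q 0.0501 in the authors' deposited table). So did CENPE (-0.73, SE 0.40, q 0.0545) and TOP2A (-0.72, SE 0.42, q 0.0563), and all 3 passed when p-values were adjusted within this comparison alone. Within GC bins, with p-values remade from the scaled SE and adjusted within the comparison, the 4 calls stayed and AURKB passed (adjusted p 0.019). CENPE (adjusted p 0.199) and TOP2A (adjusted p 0.0997) did not pass there. The same remade test without GC bins called more genes, as given below.

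Het at day 5 had 1 call, CCND2 (-1.32, SE 0.49), lower in the authors' deposited table, where 1.02% of all genes were called lower and 1.14% higher. All 17 G2/M genes were below wild type, with a median of -0.36 and a range from -0.62 for KIF11, the motor that separates spindle poles, to -0.04 for UBE2C. Of the 17, 0 were called and 3 were lower at Cuffdiff's unadjusted p below 0.05, beside 4.26% of all genes, and all 17 share the 1 wild-type day 5 group with the KO comparison. Values in Het and KO side by side were -0.55 and -0.92 for CDK1, -0.37 and -1.004 for CCNB2, -0.51 and -0.72 for TOP2A and -0.21 and -0.79 for AURKB. The GC trend in Het was -0.22 in the lowest 20% and 0.16 in the highest. Within GC bins the Het median was -0.28, CDK1 was at -0.32, CCNB2 at -0.26, TOP2A at -0.29 and KIF11 at -0.40, and UBE2C was no longer below 0. Beside these, the summed neural progenitor markers (8 genes, none at 0) were 444, 355 and 261 FPKM in wild type, Het and KO at day 5. NES was the highest of them (250, 196 and 101 FPKM), and FABP7 went the other way (16.3, 31.9 and 98.2 FPKM). In KO 5 of the 8 were called lower and 1, FABP7, higher, beside 5.68% and 7.58% of all genes. Summed postmitotic neuron markers (12 genes, none at 0) were 116, 98.6 and 83.0 FPKM in the same 3 groups. TUBB3 made up most of the neuron sum (80.1, 74.2 and 57.5 FPKM), and of the 11 neuron markers tested in KO 2 were called higher (DCX and MAPT) and 2 lower (NEFM and SYT1). SYT1 lies on chromosome 12, and less the median of that chromosome it was at -0.68 in KO and no longer called. Summed mesoderm and endoderm markers (10 genes) were 1.10, 2.44 and 6.53 FPKM, with SOX17 and FOXA2 at 0 in wild type and Het. Their part in the G2/M values was not tested.

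No cell cycle gene was called between KO and Het. By the authors' deposited table, 0 of 38 were called at day 3, where 2.30% of all genes were called higher and 0.540% lower in KO, and 0 of 38 at day 5, where 5.55% and 2.51% were. At day 3 changes ran from -0.46 for GINS2 to 0.57 for CCND1, and at day 5 from -0.70 for CDT1 to 0.92 for CCNE2, whose SE was 1.65. Medians at day 5 were -0.05 for G1/S genes and -0.17 for G2/M genes, with 12 of 17 below 0. With Cuffdiff's unadjusted p below 0.05, 1 of 38 genes was higher in KO at day 3, beside 5.48% of all genes, and 1 lower at day 5, beside 6.30%. The SE of the day 5 changes was 0.39 or more, and a missed threshold does not show that the lines are alike.

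D-type cyclins couple growth signals to RB, and 1 of them, CCND2, had the largest difference from wild type among the 38 genes in 3 of the 4 comparisons of an edited line with it, while in KO at day 3 CDT1 differed more. CCND1 (chromosome 11, 69455873 to 69469242) stood at 139, 112 and 166 FPKM in wild type, Het and KO at day 3, and 115, 84.2 and 57.2 at day 5. In KO it went from the highest of the 6 values to the lowest, a fall of 2.90-fold (-1.53, SE 0.41), beside -0.27, SE 0.41 in wild type and -0.41, SE 0.42 in Het. CCND2 (chromosome 12, 4382902 to 4414522) stood at 75.3, 34.2 and 35.4 FPKM in wild type, Het and KO at day 3, and 135, 54.2 and 37.9 at day 5, with wild type above both edited lines at each day. It rose in wild type (0.84, SE 0.44), was at 0.66, SE 0.47 over the course in Het and at 0.10, SE 0.42 in KO, and was 3.56-fold lower in KO than in wild type at day 5. CCND3 passed no test. Summed, the 3 cyclins came to 219, 150.0 and 206 FPKM in wild type, Het and KO at day 3, and 255, 143 and 102 at day 5. CCND2 made up 34.4%, 22.8% and 17.2% of that sum in wild type, Het and KO at day 3, and 52.9%, 37.9% and 37.0% at day 5, and wild type at day 5 was the group in which it exceeded CCND1. The implied SE there was 22.7% of the level for CCND2 and 19.9% for CCND1, and no test between genes was made. FPKM is per transcript length, but levels also moved with GC content, so the levels of different genes compare only roughly.

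**Figure D5:**
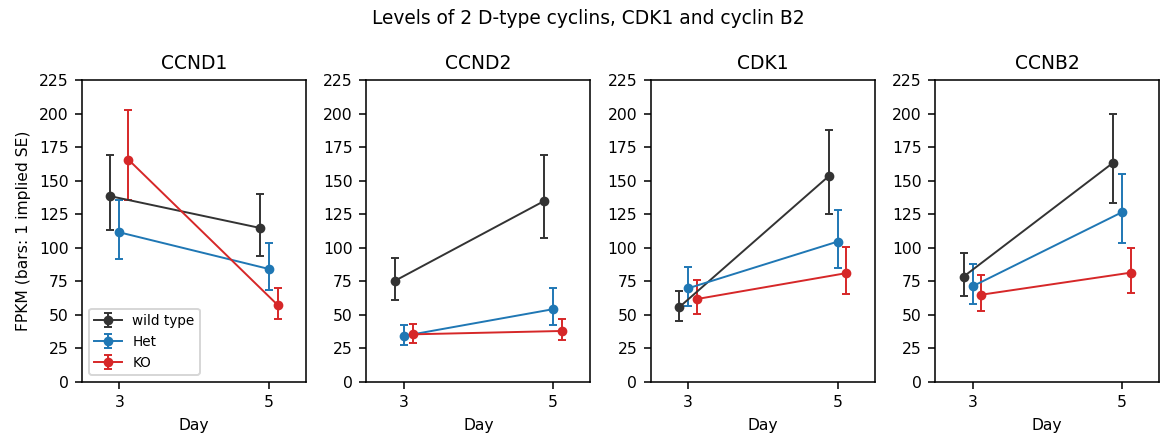
FPKM of CCND1, CCND2, CDK1 and CCNB2 at day 3 and day 5 in wild type (black), Het (blue) and KO (red), with bars of 1 implied SE. CCND1 drops in KO from 166 to 57.2, CCND2 is highest in wild type at both days, and CDK1 and CCNB2 are highest in wild type at day 5.

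CCND2, CDK2 and CDK4 lie on chromosome 12. Genes of that chromosome as a whole were lower in both edited lines than in wild type, with median changes of -0.47 in KO and -0.52 in Het at day 3, and -0.50 and -0.27 at day 5. Of its expressed genes, 89.0% were below 0 in KO at day 3 and 90.2% in Het. Less that median, CCND2 differed by -0.62 in KO at day 3 (adjusted p 0.138) and -0.62 in Het (adjusted p 0.191), and CDK4 by -0.29 in KO (adjusted p 0.675), so none of these 3 kept its call. At day 5 CCND2 differed by -1.33 in KO (adjusted p 6.68e-05), still called, and by -1.05 in Het (adjusted p 0.0619), no longer called. In KO, genes of the long arm of chromosome 1 were higher, with medians of 0.60 at day 3 and 0.37 at day 5, and CENPF, which lies there, stood at 39.2, 55.5 and 60.7 FPKM in wild type, Het and KO at day 3, and 46.0, 36.3 and 47.4 at day 5. CENPF was at 0.63, SE 0.39 in KO against wild type at day 3, or 0.03 less the median there. The other 34 genes lie outside both regions.

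Other replication genes, 45 that were not among the 38, were lower at day 5 in most cases (37, 41 and 39 of 45 in wild type, Het and KO), like the G1/S genes. Changes in this list and in the lists below are without GC bins, and the part of GC content in them was not tested. By the authors' deposited table, 12 of 45 fell and 0 rose in wild type, beside 10.4% and 11.2% of all genes. The median was -0.36, and POLE (-1.24, SE 0.41), the leading-strand polymerase, TK1 (-1.17, SE 0.52), UNG (-1.15, SE 0.43) and CHAF1A (-1.13, SE 0.43) led the falls. In Het 4 fell (median -0.45), beside 2.83% of all genes, with POLA1 (-1.42, SE 0.46), UHRF1, MCM10 and POLE. In KO 4 fell (median -0.37), beside 4.53% of all genes, with ORC1 (-0.97, SE 0.44), PRIM2, POLD3 and POLE. In both lines 0 rose, beside 4.74% of all genes in Het and 7.29% in KO. Against wild type, 1 of 45 genes was lower in KO at day 3, POLD1 (-1.05, SE 0.46), beside 5.17% of all genes. At day 5, 3 of 45 were lower in KO, beside 5.68% of all genes. They were CDC7 (-1.13, SE 0.42), the kinase that fires origins, POLD3 (-0.86, SE 0.44) and GMNN (-0.86, SE 0.48), the inhibitor of CDT1. In Het 0 of 45 were called at either day, where 4.63% and 1.02% of all genes were called lower. Unadjusted, 4 at day 3 and 1 at day 5 were lower, beside 11.1% and 4.26% of all genes.

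Other mitosis genes, 54 in all, had mostly positive changes in wild type, like the G2/M genes (40 of 54 above 0). By the authors' deposited table, 24 of 54 rose and 5 fell in wild type, with a median of 0.50, beside 11.2% and 10.4% of all genes. PTTG1 (1.30, SE 0.43), which is securin, NUF2 (1.23, SE 0.44), of the kinetochore, and NEK2 (1.19, SE 0.45) rose, and MYBL2 (-1.48, SE 0.43), the MMB activator and itself an E2F target, fell. In Het 3 rose and 1 fell (median -0.03), beside 4.74% and 2.83% of all genes. In KO 2 rose and 2 fell (median 0.02), beside 7.29% and 4.53%. At day 5 the median against wild type was -0.40 in KO, with 48 of 54 below 0, and -0.29 in Het, with 46 of 54 below 0, 0 called and 5 lower unadjusted, beside 4.26% of all genes. In KO, PTTG1 (-0.97, SE 0.43) and DLGAP5 (-0.78, SE 0.41) were lower and CDC25B (1.53, SE 0.44), a phosphatase that activates CDK1, was higher. Of all genes 5.68% were called lower there and 7.58% higher. At day 3 ESPL1, or separase, was lower in KO (-0.81, SE 0.42), where 5.17% of all genes were called lower. In Het ESPL1, CDC25B (-1.17, SE 0.53) and FOXM1 (-0.83, SE 0.42), the transcription factor of G2 genes, were lower, beside 4.63% of all genes. ESPL1 and FOXM1 lie on chromosome 12, and less the median of that chromosome ESPL1 was at -0.34 in KO and -0.41 in Het and FOXM1 at -0.31 in Het, none of them called. KO and Het differed at day 5 in CDC25B (2.07, SE 0.44) and PTTG1 (-0.88, SE 0.43), where 5.55% of all genes were called higher in KO and 2.51% lower.

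CDK inhibitors and the RB-E2F genes, 28 listed with the 3 D-type cyclins among them, held some of the largest changes. CDKN1A, which encodes p21, stood at 34.1, 8.03 and 24.1 FPKM in wild type, Het and KO at day 3, and 100.2, 66.8 and 56.1 at day 5, and rose over time in wild type (1.56, SE 0.44), Het (3.06, SE 0.48) and KO (1.22, SE 0.44). It was lower in Het than in wild type at day 3 (-2.08, SE 0.48) and higher in KO than in Het (1.59, SE 0.49). CDK6, the other partner of D-type cyclins, was higher at day 3 in KO (2.41, SE 0.52) and Het (1.61, SE 0.54), while CDK4 was at -0.76 and -0.67. It stood at 0.792, 2.42 and 4.22 FPKM in wild type, Het and KO at day 3, and 2.97, 1.93 and 3.12 at day 5, and rose in wild type (1.91, SE 0.53). CDKN1B, or p27, was lower at day 3 in KO (-1.11, SE 0.46) and Het (-0.83, SE 0.46), and CDKN1C, or p57, in KO (-1.30, SE 0.61). The repressors E2F8 (-1.56, SE 0.58) and E2F7 (-1.13, SE 0.44) were lower in KO at day 5. CDKN1B and E2F7 lie on chromosome 12, and less the median there CDKN1B was at -0.64 in KO and -0.31 in Het at day 3 and E2F7 at -0.62 in KO at day 5, none of them called. By the authors' deposited table, 1 of 25 tested genes of the list was higher in KO at day 3 and 4 lower, beside 4.34% and 5.17% of all genes. At day 5 these were 0 and 6 of 26, beside 7.58% and 5.68%. In Het 1 was higher and 3 lower of 25 at day 3, beside 1.68% and 4.63%. At day 5 these were 0 and 1 of 26, beside 1.14% and 1.02%. Over time 5 of 26 rose and 3 fell in wild type, beside 11.2% and 10.4%. In Het 4 of 25 rose and 0 fell, beside 4.74% and 2.83%. In KO 3 of 26 rose and 3 fell, beside 7.29% and 4.53%. CCND1 and CCND2, described above, are counted again here.

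In all, 22 of the 38 genes were called in at least 1 of the 9 comparisons and 16 in none, beside 35.5% of the 13505 genes tested in all 9 with a call. The wild-type course alone held 19 of the 22. The 16 were MCM6, PCNA, GINS2, RRM1, RRM2, TYMS, CCNE2 and CCND3 of G1/S, and PLK1, AURKB, BUB1B, CDC20, MKI67, BIRC5, CENPF and KIF11 of G2/M. PLK1, the polo kinase of mitotic entry, ranged from 53.2 to 68.6 FPKM, and MKI67, which encodes the proliferation antigen Ki-67, from 25.6 to 35.3. BUB1B, of the spindle checkpoint, ranged from 40.2 to 49.2 FPKM, and KIF11 from 23.0 to 35.3. CDC20, the activator of the anaphase-promoting complex, ranged from 82.2 to 124 FPKM, with the lowest value in KO and the highest in wild type, both at day 5. BIRC5, or survivin, ranged from 50.1 to 70.9. For 8 genes (MCM7, PCNA, TYMS, CCNE2, CDK4, CCNA2, PLK1 and BUB1B) the deposited locus is shared with at least 1 other gene, and whether reads were counted by strand is not given in the sources used here, so their levels may include reads of a neighbour. The implied SE of a level was between 18.2% and 29.5% of it for 36 genes and larger for TYMS (32.4% to 37.1%) and CCNE2 (52.9% to 83.4%), so for these 2 genes only large changes could have been called.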

How the data were processed

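The submitters' processing notes name TopHat2 2.1.1, Cuffdiff 2.2.1 and hg19. The annotation and strand setting are not given there. The authors deposited 1 table of 15 comparisons among 6 groups, with FPKM per gene and group, the log2 fold change, a test score, a p-value and a q-value. No value per library was used, so depth is unknown. Per the file headers the q-value is the adjusted p-value, and it equals a Benjamini-Hochberg adjustment over all 222234 tests to within 5.28e-07. The smallest deposited p-value is 5e-05.

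Of the comparisons, 9 were used, and a gene was called where its deposited q-value was below 0.05. Log2 changes used group FPKM without a pseudocount. The SE is the log2 change over the test score. SEs per group were solved from all 15 comparisons (13408 genes, median relative error 1.92e-06). Differences of day changes were tested with these SEs, and with SEs scaled by 0.635 (KO) and 0.632 (Het), the ratio that the deposited p-values imply. GC content came from the longest GENCODE v29 transcript (86.2% of genes, all 38 cell cycle genes), in 20 bins. Tests within GC bins, or less a regional median, were 2-sided normal tests remade with the scaled SE and adjusted within the comparison. Calls there can therefore differ from the deposited ones through the test as well as through the shift. Tests were tried on simulated data whose noise was drawn with the scaled SE. That trial therefore cannot tell whether the implied or the scaled SE is the right one. Python 3.11.15, pandas 2.3.3, numpy 2.4.6 and scipy 1.17.1 were used.

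The 38 genes and all lists were chosen with earlier results of these data known. Genes with a call, the 3 genes of each phase with the highest mean FPKM and those on chromosome 12 or the long arm of chromosome 1 were given in every group, and up to 4 called genes of each other list were named per comparison, by smallest p and then by largest change. Alternatives were a q threshold of 0.01, adjustment within a comparison, at least 1 FPKM in both groups, changes less the median of expressed genes or of the GC bin, scaled SEs, and leaving out chromosome 12 and the long arm of chromosome 1. Added after the values were seen were the remade test without a shift, scaled SEs within GC bins, and changes less the median of those 2 regions, for listed genes as well.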

Additional observations from a re-analysis of the deposited data

Results flagged for a closer look

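The change of CCND1 (cyclin D1) from day 3 to day 5 differed between KO and wild type by -1.26 on the log2 scale, and it is listed because this difference passed the test of the difference itself with the scaled SE (adjusted p 0.0174). With the implied SE it did not pass (adjusted p 0.85). CCND1 went from 166 to 57.2 FPKM in KO and from 139 to 115 in wild type, and within GC bins the difference was -1.30 (adjusted p 0.0147 with scaled SE). Each group has 1 deposited level, so how its libraries agree cannot be seen.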

How the results depend on the processing

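With q below 0.01 in place of 0.05, 12 cell cycle genes were called in the wild-type course in place of 19, 0 in place of 1 in Het over time, and 1 in place of 2 in Het against wild type at day 3. That last count was also 1 with adjustment within the comparison, with at least 1 FPKM in both groups, within GC bins, without the genes on chromosome 12 and the long arm of chromosome 1, and with changes there less the median of the region. In KO against wild type at day 3 the count went from 3 to 1 within GC bins, without those genes, and less the regional median. At day 5 it went from 4 to 7 with adjustment within the comparison, with the test remade without a shift, less the median of expressed genes, and less the regional median. In Het at day 5 it went from 1 to 0 without those genes and less the regional median. Within GC bins Het over time had 0 in place of 1. The difference of day changes in KO went from 0 to 1 with scaled SE, also within GC bins. The causes were not tested. The calls of KO over time (3) and of KO against Het (0) stayed within 1.5 times under all alternatives run. Medians changed sign within GC bins for G2/M genes in KO at day 3 (0.04 to -0.03) and G1/S genes in KO at day 5 (0.06 to -0.01), and without the genes of those 2 regions the G1/S median in KO at day 3 went from -0.17 to -0.06. No paired analysis was possible because the deposited table holds 1 level per group and no value per replicate, and leaving out a replicate was not run for the same reason. Depth per library is unknown and limits which changes could be called.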
